A study of Mus musculus with 59 samples.

Results

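The genes described here are the subunits of RNA polymerases I, II and III in embryoid bodies that contained spinal motor neurons. Members were the rows of the deposited expression table whose gene symbol starts with Polr1, Polr2 or Polr3 followed by a letter, which gave 27 of 19613 genes. The rule itself uses no measured value, and no filter on dim genes was applied, so that all 27 were tested. The embryoid bodies were grown from HBG3 mouse embryonic stem cells, which carry an HB9-eGFP reporter that lights up motor neurons. They were exposed for 24 h to serum from male mice hemizygous for the mutant human SOD1 transgene, a model of amyotrophic lateral sclerosis, taken before symptoms began, or to serum from non-carrier littermates. The serum donors were F1 progeny of C57BL/6 and SJL mice. The donors' genotype is therefore the only labelled difference between the groups, and the cells that were measured are of 1 line throughout. RNA from 29 samples with carrier serum and 30 with non-carrier serum was measured on 59 exon arrays.

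The sample titles place the arrays in 9 runs, each with both kinds of serum. The run titled motorneuron held 3 carrier and 4 non-carrier arrays, and the run titled HB9MNs held 2 and 2. The titles with numbers gave 6 runs, called A (101 to 106), B (107 to 112), C (114 to 124), D (125 to 131), E (133 to 138) and F (139 to 144). The run titled 10wk held 3 arrays of each kind and had a time point label of 10 weeks, while the other 53 arrays had one of 9 weeks. The labels attach these weeks to the cultures. In the study, however, the embryoid bodies were exposed days, not weeks, after differentiation. The ages it gives are those of the serum donors, and the weeks are read here as such. The labels name no batch of embryoid bodies, so the runs are those the titles give. By the study's methods, each batch served a small group of assays, and run C, with 11 arrays, may hold more than 1. Batch, time of assay and, for the run 10wk, the labelled weeks cannot be told apart. Median intensities per array were 164 to 183 in the run motorneuron and 151 to 168 in the other runs. The mean intensities of Mnx1, Isl1 and Chat, which mark motor neurons, stood at the percentiles 77.5, 95.7 and 80.2 of all genes, a rank that also depends on the probes. Of the 7 motor neuron markers measured, 1 passed the test for serum, Slc5a7 (the choline transporter), and 0 of 5 progenitor, 0 of 8 pluripotency, 0 of 4 glial, 0 of 5 endoderm and mesoderm and 0 of 5 proliferation markers did. The summed intensity of the motor neuron markers ranged from 4320 to 5786 with carrier serum and from 4295 to 5541 with non-carrier serum.

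RNA polymerase I makes the large ribosomal RNA precursor, RNA polymerase II makes messenger RNA and many small nuclear RNAs, and RNA polymerase III makes transfer RNA, the small ribosomal RNA of the large subunit and other short RNAs. Each enzyme is built around a pair of large catalytic subunits, encoded by Polr1a and Polr1b, by Polr2a and Polr2b, and by Polr3a and Polr3b. Several small subunits are common to the 3 enzymes, Polr1c and Polr1d are shared by RNA polymerases I and III, and Polr3c, Polr3f and Polr3g or its paralog Polr3gl form a subcomplex of RNA polymerase III that takes part in initiation. By these roles the 27 genes fell into 3 for RNA polymerase I only, 2 shared by I and III, 7 for RNA polymerase II only, 5 common to the 3 enzymes (Polr2e, Polr2f, Polr2h, Polr2k and Polr2l) and 10 for RNA polymerase III only. A further 4 subunits listed under other symbols (Twistnb, Cd3eap, Znrd1 and Crcp) were not members and are given with the transcription factors.

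Values are the log2 of the deposited gene intensity. On an exon array these depend on the probes of each gene, so levels were compared between samples and not between genes. In bulk cultures a change in the share of a cell type and a change in RNA per cell cannot be told apart.

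Serum from carriers went with a change of 2 of the 27 subunits in the limma fit with run as a block (adjusted p under 0.05 over all genes). Polr2f, a small subunit common to the 3 enzymes, was higher, and Polr3c, of the initiation subcomplex of RNA polymerase III, was lower. One member of 27 higher stands beside 0.683% of all genes called higher, and one lower beside 1.65% called lower. In either direction the share over all genes was 2.33%. At an unadjusted p under 0.05 there were 8 of 27 members, against 20.7% of all genes. The fitted change was negative for 18 of 27 members and for 38.9% of all genes, and its median was -0.01 over the members and 0.02 over all genes. These medians depended on the genes kept and on scaling. With genes below the median intensity left out, they were -0.016 over 24 members and -0.0096 over all genes kept. With quantile normalization they were -0.0031 and 0.0015.

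**Figure D1:**
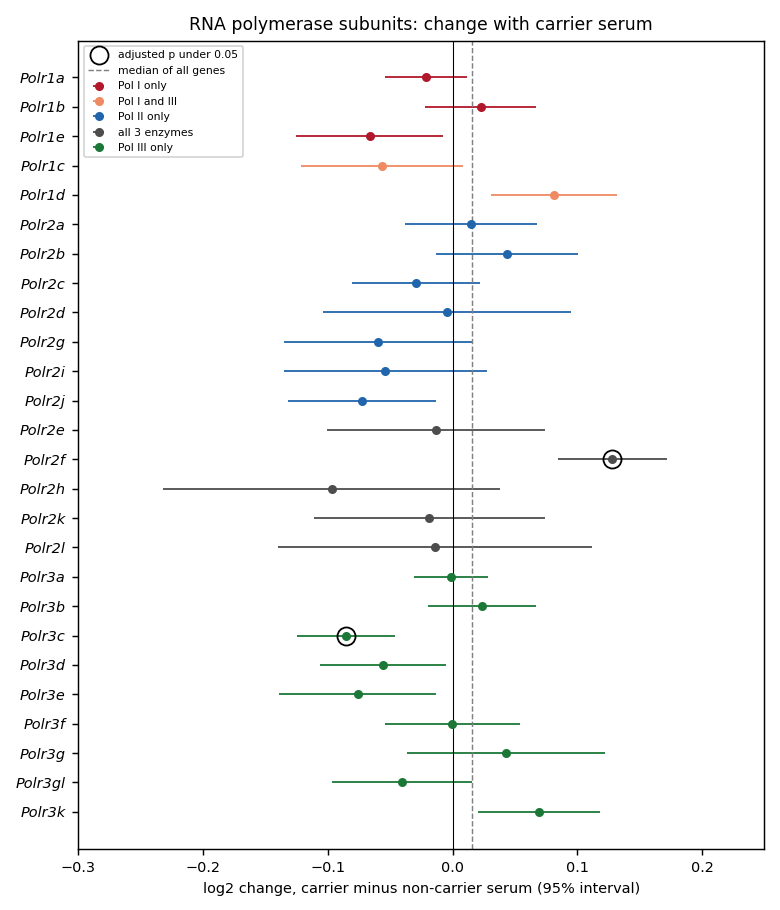
Fitted log2 change of 26 of the subunits with carrier serum relative to non-carrier serum (points, n = 29 and 30 arrays) with the 95% interval (bars), coloured by the enzyme that holds the subunit; the dashed line is the median of all genes and a ring marks an adjusted p under 0.05. Polr2f, at 0.13, and Polr3c, at -0.09, carry the rings, and the widest interval is that of Polr2h.

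The level of Polr2f ran from 10.80 to 11.69 with a median of 11.07 over the carrier arrays, and from 10.76 to 11.42 with a median of 10.92 over the non-carrier arrays. The means were 11.09 ± 0.20 (SD, n = 29) and 10.98 ± 0.18 (SD, n = 30), spreads that include the differences between runs. The pooled groups therefore overlapped over most of their range. With each array set against the mean of its run, the carrier arrays lay at 0.06 ± 0.09 and the non-carrier arrays at -0.06 ± 0.06. The fitted change was 0.13 (SE 0.0217, 95% interval 0.08 to 0.17, limma adjusted p = 7.36e-04), or 9.29% in intensity.

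Polr2f was higher with carrier serum in 9 of 9 runs. The difference was 0.18 in the runs motorneuron and HB9MNs, 0.12 in A, 0.17 in B, 0.08 in C, 0.20 in D, 0.12 in E, 0.04 in F and 0.10 in 10wk. In 5 runs every carrier array was above every non-carrier array, as in 10wk, where the 3 carrier arrays read 10.92 to 10.95 and the 3 non-carrier arrays 10.78 to 10.89. Of all genes, 0.653% were higher in all 9 runs and 0.296% were separated upwards in at least 5. In run C 1 carrier array, at 10.80, was below the 5 non-carrier arrays, whose lowest was 10.88. The effect of carrier serum on Polr2f was past the threshold in 21 of 23 alternative analyses. Without the run in the fit its adjusted p was 0.995, and from runs E and F alone the change was 0.08 with an adjusted p of 0.487.

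The level of Polr3c ran from 7.84 to 8.77 with a median of 8.43 with carrier serum and from 7.98 to 8.81 with a median of 8.50 with non-carrier serum. The means were 8.41 ± 0.21 (SD, n = 29) and 8.48 ± 0.18 (SD, n = 30). As with Polr2f, the pooled groups overlapped. The fitted change was -0.09 (SE 0.0196, 95% interval -0.12 to -0.05, limma adjusted p = 0.0112).

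Polr3c was lower in 8 of 9 runs, by -0.18 in motorneuron, -0.07 in A, -0.14 in B, -0.03 in C, -0.10 in D, -0.06 in E, -0.13 in F and -0.12 in 10wk. The exception was HB9MNs, where both carrier arrays (8.51 each) lay above the 2 non-carrier arrays (8.38 and 8.48). In 4 runs (A, B, F and 10wk) the carrier arrays were all below the non-carrier arrays. Of all genes, 5.45% were lower in 8 or more runs and 2.30% were separated downwards in at least 4. The call of Polr3c was lost when run B, D, F or 10wk was left out, with adjusted p of 0.0556, 0.0583, 0.0533 and 0.062, while the change was -0.08 in each case.

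**Figure D2:**
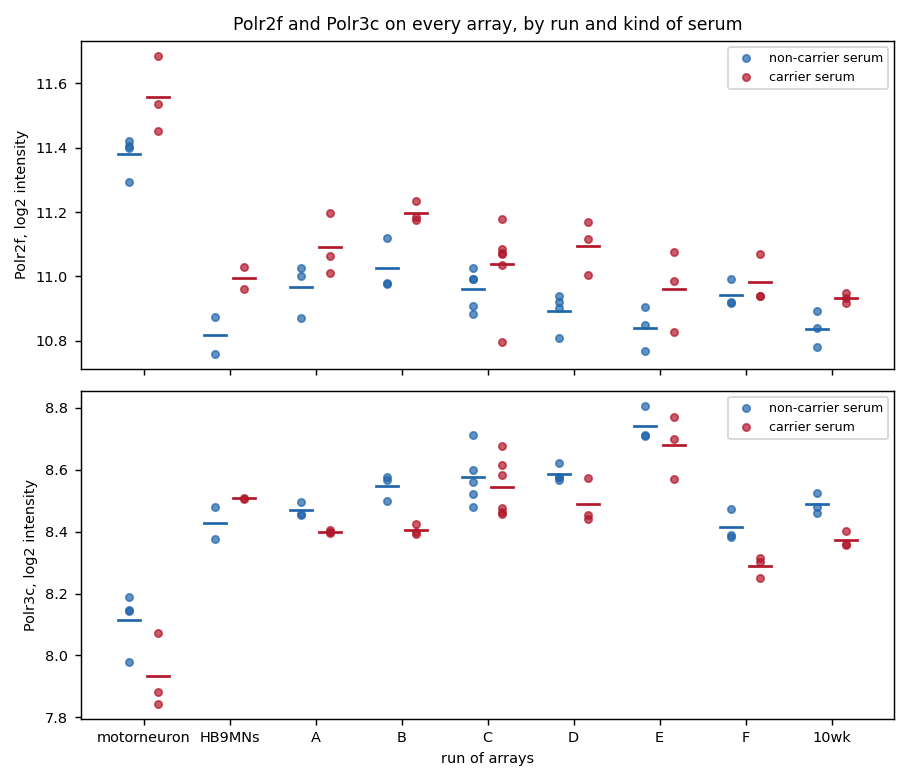
Log2 intensity of Polr2f (upper panel) and Polr3c (lower panel) on each of the 59 arrays, by run and kind of serum; points are arrays and short lines are means of a kind of serum in a run. Polr2f was higher with carrier serum in 9 of 9 runs and Polr3c lower in 8, while the run motorneuron stood above the other runs for Polr2f and below them for Polr3c.

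The promoters of these 2 genes are shown because the result turns on them. RefSeq promoters were at hand for 21 of the 27 members, as 22 windows since Polr2h has 2. The 250 bases before each start were searched on both strands for 7 motifs. CCGGAAGT, an ETS family motif, was in 4 member windows (Polr1c, Polr2f, Polr2j and Polr3b) and in 2.88% of 32851 promoters. CACGTG, the E box bound by Myc and Max and by other factors, was in those of Polr3c and Polr3gl and in 6.02% of promoters. The windows of Polr2f (chr15:79141075-79141324, plus strand) and Polr3c (chr3:96727440-96727689, minus strand, both build GRCm38.p6) read as follows, with the ETS motif of Polr2f and the E box of Polr3c in capitals.
Polr2f: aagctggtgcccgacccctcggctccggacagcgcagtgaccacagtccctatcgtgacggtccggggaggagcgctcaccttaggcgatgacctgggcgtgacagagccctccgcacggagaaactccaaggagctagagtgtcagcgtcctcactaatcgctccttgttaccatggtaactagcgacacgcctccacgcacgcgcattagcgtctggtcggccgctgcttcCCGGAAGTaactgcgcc
Polr3c: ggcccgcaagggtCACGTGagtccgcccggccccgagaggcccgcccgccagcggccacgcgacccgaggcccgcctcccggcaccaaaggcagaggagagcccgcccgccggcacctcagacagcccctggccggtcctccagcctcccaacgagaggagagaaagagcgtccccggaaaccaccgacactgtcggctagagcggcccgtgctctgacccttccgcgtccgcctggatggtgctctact

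The other 3 windows with the ETS motif are shown around it, in capitals, for comparison with Polr2f. They lie at chr17:46248046-46248105 (minus strand), chr5:136116631-136116690 (plus) and chr10:84622238-84622297 (plus), and in Polr3b the motif is on the opposite strand. Of these 3 genes, 1 (Polr2j) had an unadjusted p under 0.05, with a negative change.
Polr1c: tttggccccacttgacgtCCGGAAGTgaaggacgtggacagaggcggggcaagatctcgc
Polr2j: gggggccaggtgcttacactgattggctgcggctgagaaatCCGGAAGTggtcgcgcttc
Polr3b: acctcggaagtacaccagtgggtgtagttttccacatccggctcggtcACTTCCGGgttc

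GGGCGG, the GC box, was in 14 member windows of 13 genes and in 32.7% of promoters, and CCAAT was in 6 and in 33.8%. The palindromic NRF1 consensus and TGATGCAA (an ATF4 element) were in 0 member windows, and in 0.782% and 0.791% of promoters. The B box consensus of transfer RNA genes, an internal promoter element, was in the window of Polr3e and in 11 promoters in all, or 0.0335%. That window is shown because Polr3e encodes a subunit of the enzyme that reads transfer RNA genes. It lies at chr7:120917528-120917777 on the plus strand, with the B box in capitals.
Polr3e: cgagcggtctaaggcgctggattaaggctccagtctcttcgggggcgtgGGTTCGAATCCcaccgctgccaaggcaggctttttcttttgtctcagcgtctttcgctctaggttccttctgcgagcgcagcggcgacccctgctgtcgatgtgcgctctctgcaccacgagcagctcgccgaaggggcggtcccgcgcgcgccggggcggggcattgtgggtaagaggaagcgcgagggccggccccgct

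Among the RNA polymerase I subunits, Polr1a, the largest catalytic subunit, changed by -0.02 (SE 0.0165, adjusted p = 0.454) and Polr1b, the second catalytic subunit, by 0.02 (SE 0.0221, adjusted p = 0.553). Polr1e was at -0.07 (SE 0.0294, adjusted p = 0.193) and lower in 7 runs. Of the subunits shared by RNA polymerases I and III, Polr1d was at 0.08 (SE 0.0252, adjusted p = 0.0651), with a mean of 8.71 ± 0.22 on carrier arrays and 8.64 ± 0.21 on non-carrier arrays. It was higher in 9 of 9 runs, but its arrays overlapped in every run. Polr1c was at -0.06 (SE 0.0325, adjusted p = 0.308). None of these 5 passed the threshold.

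Of the 7 subunits of RNA polymerase II only, 0 passed the threshold. Polr2a, whose C-terminal repeats are phosphorylated as the enzyme moves from initiation to elongation, was at 0.01 (SE 0.0263, adjusted p = 0.763), with means of 9.98 ± 0.22 and 9.96 ± 0.25. Polr2b, the second catalytic subunit, was at 0.04 (SE 0.0285, adjusted p = 0.369) and higher in 8 runs. Polr2j, a small subunit, was at -0.07 (SE 0.0295, adjusted p = 0.159), with a carrier range of 8.12 to 9.09 around a median of 8.56 and a non-carrier range of 8.40 to 8.99 around 8.63. The changes of Polr2c, Polr2d, Polr2g and Polr2i lay between -0.06 and 0.00, with adjusted p from 0.347 to 0.964.

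Polr2f stood apart from the other 4 common subunits in the serum comparison. Polr2e was at -0.01 (SE 0.0435, adjusted p = 0.879), Polr2k at -0.02 (SE 0.0461, adjusted p = 0.832) and Polr2l at -0.01 (SE 0.0626, adjusted p = 0.910). Polr2h had the widest spread, with arrays from 6.23 to 7.53 with carrier serum and from 6.37 to 8.13 with non-carrier serum. Its change was -0.10 (SE 0.0672, 95% interval -0.23 to 0.04, adjusted p = 0.396), the carrier arrays being lower in runs D, E and F by -0.30, -0.31 and -0.41. The difference between Polr2f and the other common subunits was not tested.

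Of the 10 subunits of RNA polymerase III only, Polr3c alone passed the threshold. Polr3a, the largest catalytic subunit, was at 0.00 (SE 0.0147, 95% interval -0.03 to 0.03, adjusted p = 0.966), the narrowest interval of the 27. Polr3k, a small subunit known for its part in termination, was at 0.07 (SE 0.0244, adjusted p = 0.105), with means of 9.97 ± 0.15 and 9.89 ± 0.16, and was higher in 9 of 9 runs. Polr3e was at -0.08 (SE 0.0314, adjusted p = 0.165) and lower in 8 runs, and Polr3d at -0.06 (SE 0.0251, adjusted p = 0.198). Polr3b and Polr3f lay between 0.00 and 0.02. Higher in all 9 runs were thus 3 members (Polr1d, Polr2f and Polr3k), against 0.653% of all genes. Lower in all 9 were 0 members, against 1.11% of all genes.

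Polr3g and Polr3gl encode alternative forms of the same subunit, of which Polr3g is known for its high level in pluripotent cells. Polr3g was at 0.04 (SE 0.0394, adjusted p = 0.526), with arrays from 6.27 to 7.28 around a median of 6.87 with carrier serum and from 6.22 to 7.16 around 6.80 with non-carrier serum. Polr3gl was at -0.04 (SE 0.0281, adjusted p = 0.395), with arrays from 7.89 to 8.51 around 8.21 and from 7.92 to 8.62 around 8.26. Neither passed the threshold. The carrier arrays of Polr3gl were lower by -0.17, -0.16, -0.15 and -0.14 in the runs motorneuron, HB9MNs, A and D, and higher by 0.12 in C and 0.13 in F.

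**Figure D3:**
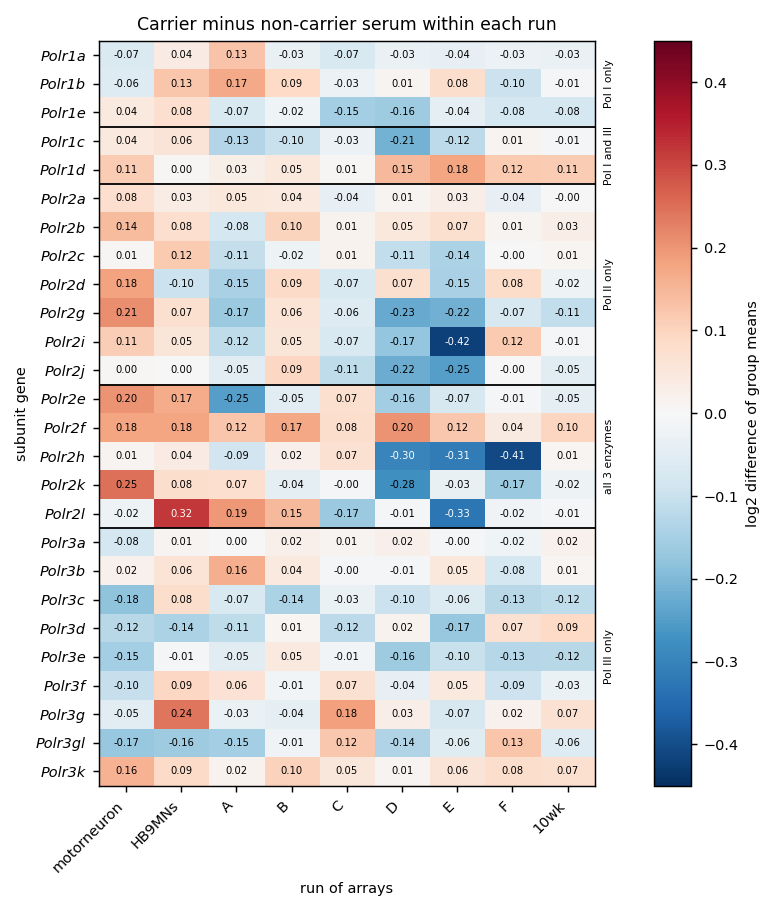
Carrier minus non-carrier difference of group means (log2, colour and printed value) for 26 of the subunits in each of the 9 runs, with the genes parted by the enzyme that holds them. Polr2f, Polr1d and Polr3k are positive in all 9 runs, and Polr3c is negative in 8.

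Whether the serum difference varied between runs was tested by the serum by run interaction. By the limma F test 0 of 27 members passed after adjustment, beside 0.127% of all genes, and the smallest adjusted p of a member was 0.532. At an unadjusted p under 0.05 there were 2, Polr3gl (p = 0.0206) and Polr2i (p = 0.0494), against 7.94% of all genes. In Polr2i the difference was -0.42 in run E and between -0.17 and 0.12 in the others. The carrier arrays of run E read 7.88, 7.72 and 6.995, against 7.86 to 8.04 with non-carrier serum, and the lowest is the array of that run called by the Grubbs test on the correlation of arrays within a run. Without the 2 arrays called by that test the difference of Polr2i in run E was -0.15 and its interaction p was 0.127 unadjusted, while that of Polr3gl was 0.0204.

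The factors that work with these enzymes were read from the same fit. There 0.683% of all genes were called higher, 1.65% lower and 2.33% in either direction. Of 8 genes listed as RNA polymerase I factors, 1 was higher, Top1 (0.08, SE 0.0229, limma adjusted p = 0.033, higher in 8 runs). It encodes the topoisomerase that relaxes DNA ahead of transcription, a role not particular to that enzyme. Of 17 RNA polymerase III factors 2 were lower and 0 higher. These were Brf2 (-0.12, SE 0.0293, limma adjusted p = 0.0189, lower in 8 runs), the initiation factor of promoters that lie upstream of the gene, and Maf1 (-0.10, SE 0.0271, limma adjusted p = 0.0401, lower in 9 runs), a repressor of RNA polymerase III. Over 23 alternatives Top1 was called in 14, Brf2 in 17 and Maf1 in 11. None of these 3 was called without run A, D or 10wk, without the run in the fit, with the 4 motor neuron genes as covariates, or from runs E and F alone. Brf1, which serves transfer RNA genes, was at -0.05 with an adjusted p of 0.281. By limma 0 of 31 general factors of RNA polymerase II, 0 of 25 elongation and termination factors, 0 of 11 assembly factors and 0 of the 4 subunits under other symbols passed. The medians of these lists lay between -0.03 and 0.00, beside 0.02 for all genes. Some lay close to the threshold. Ssrp1, of the elongation list, was at -0.07 (SE 0.0218, limma adjusted p = 0.0506) and lower in 8 runs. Twistnb, of RNA polymerase I, was at 0.11 (SE 0.0342, adjusted p = 0.0558) and higher in 9 runs, and Crcp, of RNA polymerase III, at -0.09 (SE 0.0354, adjusted p = 0.134). Ssrp1 and Twistnb were called in some alternatives, both of them with run C parted into 2 blocks and with array weights.

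The runs differed far more than the kinds of serum. By the limma F test all 27 members differed between runs, beside 94.0% of all genes. The distance from the lowest to the highest run mean was 0.23 for Polr2b and 1.36 for Polr2e, the ends of the range. Its median was 0.55 over the members and 0.53 over all genes. For Polr2f, the distance was 4.45 times the size of the fitted serum change, and for Polr3c 7.87 times. The run took 74.6% of the variance of Polr2f and 83.8% of that of Polr3c.

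**Figure D4:**
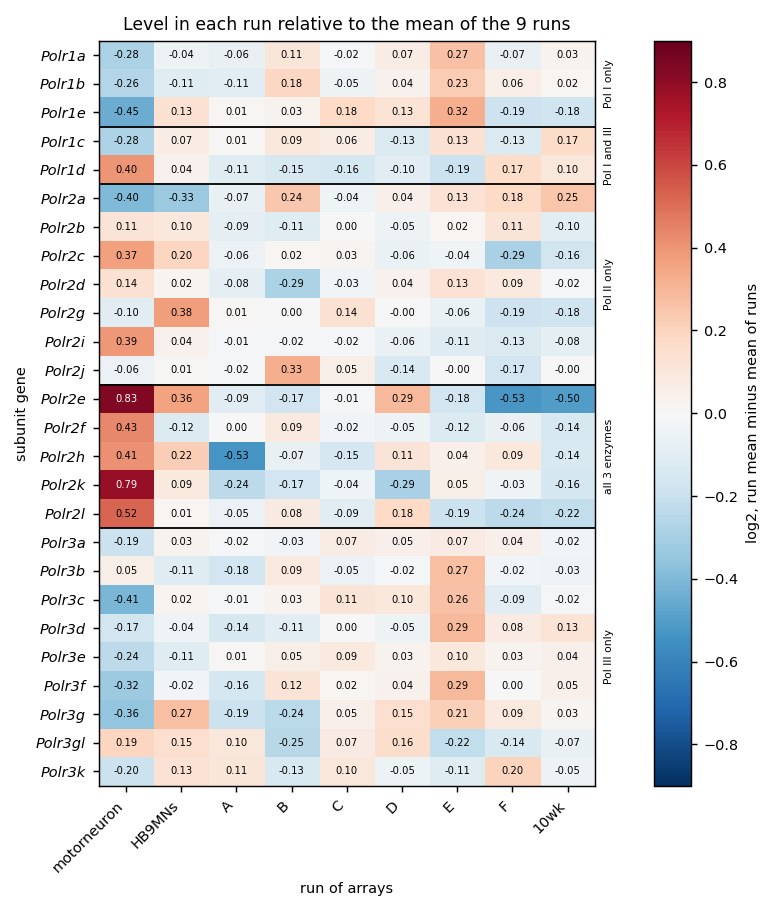
Mean log2 level of 26 of the subunits in each run, minus the mean of the 9 run means (colour and printed value). The 5 subunits common to the 3 enzymes were highest in the run motorneuron, at 0.41 to 0.83, and Polr2e was lowest in runs F and 10wk, at -0.53 and -0.50.

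Polr2e had run means of 10.10 ± 0.14 (SD, n = 7) in motorneuron, 9.63 ± 0.17 (n = 4) in HB9MNs, 9.17 ± 0.16 (n = 6) in A, 9.09 ± 0.11 (n = 6) in B, 9.25 ± 0.29 (n = 11) in C, 9.55 ± 0.11 (n = 7) in D, 9.09 ± 0.13 (n = 6) in E, 8.74 ± 0.04 (n = 6) in F and 8.76 ± 0.07 (n = 6) in 10wk. Every array of the run motorneuron was above every array of the other runs, and the range of means was 2.56-fold in intensity. Polr2k ran from 7.20 ± 0.18 (n = 7) in D to 8.28 ± 0.25 (n = 7) in motorneuron, with HB9MNs next at 7.58 ± 0.16 (n = 4). Polr2h ran from 6.50 ± 0.14 (n = 6) in A to 7.44 ± 0.54 (n = 7) in motorneuron, where its 4 non-carrier arrays alone spread from 6.37 to 8.13.

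Each run was then compared with the mean of the other 8, a contrast added after the values were seen. In the run motorneuron 10 members were higher, beside 56.2% of all genes, and 12 were lower, beside 24.6%. The median of all genes was itself shifted by 0.18 in that run. The 5 subunits common to the 3 enzymes were all higher, by 0.46 (Polr2h) to 0.94 (Polr2e) with a median of 0.59. The 3 subunits of RNA polymerase I only were all lower, by -0.51 (Polr1e), -0.32 (Polr1a) and -0.30 (Polr1b), and 7 of the 10 of RNA polymerase III only were lower, from -0.19 (Polr3d) to -0.47 (Polr3c), with 1 higher (Polr3gl, 0.21). The directions of the 5 common subunits and of the 3 of RNA polymerase I only held with arrays centred on their medians and with quantile normalization, under which the RNA polymerase III subunits split into 0 higher and 9 lower, and 2 higher and 8 lower. Among the subunits of RNA polymerase II only, Polr2a was lower, by -0.45, and Polr2b, Polr2c and Polr2i were higher, by 0.13, 0.41 and 0.44. The pair shared by RNA polymerases I and III split, with Polr1c at -0.31 and Polr1d at 0.45.

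Run E showed the other picture for most of the RNA polymerase I and III genes. Each of these 2 runs is in the mean that the other is set against, so the 2 contrasts are not independent. In run E 12 members were higher, beside 22.9% of all genes, and 5 were lower, beside 40.3%, with the median of all genes at -0.07. The 3 subunits of RNA polymerase I only were higher by 0.25 to 0.37, and 7 of the 10 of RNA polymerase III only were higher, from 0.08 (Polr3a) to 0.33 (Polr3d and Polr3f). Lower were 2 of the 10, Polr3gl and Polr3k. Polr3k, at -0.12 in run E, was also lower in the run motorneuron, at -0.22. In run E its call was lost with arrays centred on their medians and without the arrays called by the Grubbs test. Of the common subunits Polr2e (-0.20) and Polr2f (-0.14) were lower and 0 were higher, and with arrays centred on their medians 0 of the 5 passed in either direction. Polr3gl (-0.25) was lower and Polr3g (0.24) higher, the reverse of the run motorneuron, where they stood at 0.21 and -0.40. Without the 1 array of run E and the 1 of run C called by the Grubbs test, 14 members were higher and 3 lower in run E.

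**Figure D5:**
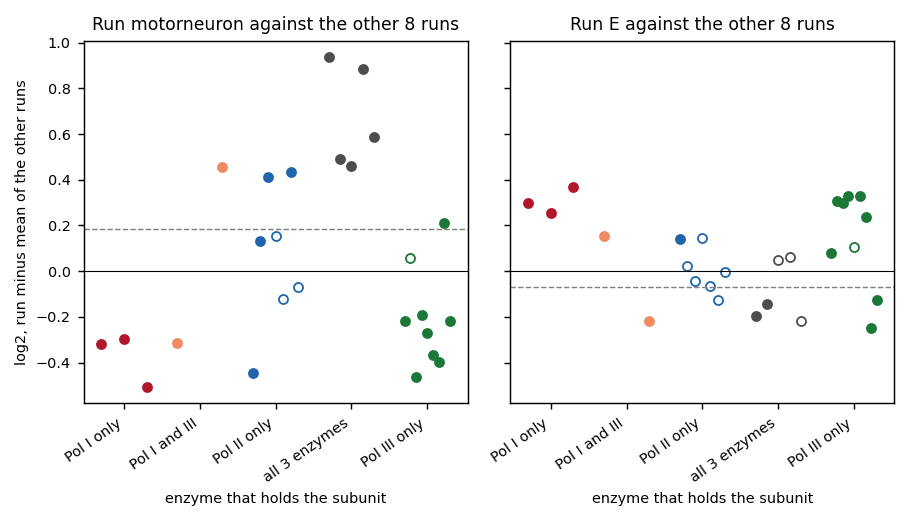
Log2 difference of 26 of the subunits between a run (left, motorneuron; right, E) and the mean of the other 8 runs, by the enzyme that holds the subunit; filled points passed an adjusted p of 0.05 in limma, open points did not, and the dashed line is the median of all genes. In the run motorneuron the 5 common subunits lie above the line and the 3 of RNA polymerase I only below 0, and in run E the latter lie at 0.25 to 0.37.

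Markers of other cell types moved with these runs. In the run motorneuron, 5 of 5 proliferation markers were lower, with a summed intensity of 1834 to 2296 against 2051 to 4296 in the other runs. There 5 of 5 endoderm and mesoderm, 3 of 4 glial and 5 of 8 pluripotency markers were higher, beside 56.2% of all genes, and 1 pluripotency marker was lower. The summed intensities of these 3 lists were 315 to 447 against 214 to 353, 631 to 686 against 384 to 677, and 522 to 660 against 395 to 607. Of 5 progenitor markers 4 were higher and 1 was lower, with summed intensities of 1434 to 1685 against 1154 to 1571, and of 7 motor neuron markers 2 were higher and 3 lower, at 4434 to 5140 against 4295 to 5786. In run E 5 of 5 proliferation markers were higher, at 3235 to 4296 against 1834 to 3477, and 5 of 5 endoderm and mesoderm markers were lower, at 214 to 282 against 228 to 447. There 3 pluripotency, 3 progenitor, 3 glial and 2 motor neuron markers were also lower, and 1 progenitor, 1 glial and 3 motor neuron markers higher. Their part in the run differences of the subunits was not tested.

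In run A 1 member was higher and 9 were lower, beside 15.2% and 15.7% of all genes, the lowest being Polr2h at -0.59. In run B 7 were higher and 10 lower (16.8% and 16.4% of all genes), from -0.32 (Polr2d) to 0.37 (Polr2j). HB9MNs had 7 higher and 4 lower (14.6% and 12.5%), with Polr2g at 0.43 and Polr2a at -0.38. Run F had 4 higher and 10 lower (14.5% and 17.2%), and 10wk had 4 and 5 (14.1% and 20.5%), with Polr2e at -0.59 and -0.57. In run C the members lay between -0.18 and 0.21 with a median of 0.00, and the median of all genes was -0.05. In run D they lay between -0.33 (Polr2k) and 0.32 (Polr2e). Polr2a was highest in 10wk and lowest in motorneuron, a range of 0.64, or 1.56-fold.

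Some readings may hold signal of a neighbour. In RefSeq, Polr1e, Polr2b, Polr2c, Polr2i and Polr2k overlap another protein-coding gene, so that their gene value could include exons of both, which was not tested. Polr2f and Polr3c overlap none.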

How the data were processed

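Total RNA of 59 embryoid body samples was hybridised to Affymetrix mouse exon arrays. The authors made gene values by robust multi-array averaging (RMA) in aroma.affymetrix, as the mean of all exons of a gene. The submitters' processing notes name Affymetrix Expression Console and RMA. By the study's methods, outlier arrays found by a Grubbs test within each batch had been taken out of its data. The Grubbs test here was run on the deposited arrays, within runs. What was deposited is 1 linear intensity per array for each of 19613 gene symbols. The genome build was not given in the sources used here. Columns were matched to samples by the sample identifiers in the header, groups came from the labels, and runs from the titles.

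Here log2 of the intensity, with no pseudocount and no filter, was fitted with limma 3.58.1 (R 4.3.3), with kind of serum and run as terms. Benjamini-Hochberg adjustment ran over all 19613 genes at 0.05. Runs were tested by the F test over run terms, and serum by run by the interaction F test. The 9 runs were each set against the other 8 after the values were seen. The scripts were tested on simulated data. Precision is limited by how many arrays there are. The study counts its serum samples by donor mouse, and several were applied to each batch of embryoid bodies. The labels do not say that samples came from separate cultures. The p-values measure the spread between samples within runs, in which donor and technical differences cannot be told apart.

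Named were members past the threshold, the 5 smallest unadjusted p, the largest subunit of each enzyme, Polr3g and Polr3gl, the 3 widest run ranges and called genes of the lists, at most 3 a list. Other members are given by their values. The members and gene lists (subunits, transcription factors, assembly factors, cell type markers) were chosen with earlier results of these data known. Promoters came from RefSeq (GRCm38.p6), of which the 250 bases before the start were used, and RefSeq names were used for overlaps. Alternatives changed the block, normalization, filter, pseudocount, variance model, arrays and runs used, and added the study's 4 motor neuron genes as covariates. The values of 1 member are not reported here or drawn, though it stays in the counts over all 27.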

Additional observations from a re-analysis of the deposited data

How the results depend on the processing

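Polr2f kept its direction in 23 of 23 alternatives and its call in 21, with changes of 0.08 to 0.14, and Polr3c its direction in 23 and its call in 16, with changes of -0.11 to -0.07. The count of members called (2) was 0 without the run in the fit, with 1 at an unadjusted p under 0.05, and 0 from runs E and F alone. It was 7 of 27 with 4 motor neuron genes as covariates (Polr1d, Polr1e, Polr2f, Polr2h, Polr3c, Polr3f and Polr3k), beside 31.2% of all genes. With array weights, which added Polr1d and Polr3k, it was 4 of 27, beside 14.3%. It was 1 (Polr2f) without run B, D, F or 10wk, and 1 without runs E and F. It was 3 with quantile normalization (adding Polr3k), without the 2 arrays called by the Grubbs test (Polr3k), without run C (Polr1d) and, over the 24 members above the median, without dim genes (Polr1d). The shares of all genes tested there were 2.26%, 3.65%, 8.16% and 6.68%. Over all genes, 457 were called, against 0 without the run in the fit, 6122 with the covariates, 2803 with array weights and 59 without runs E and F. Leaving out 1 run gave 106 (D) to 1601 (C), and runs E and F alone 17. The count for the other lists (3) was 0 without the run in the fit, 31 with the covariates, 19 with array weights, 6 without genes below the median, and 5 without genes below the 20th percentile, with run C parted, and with an intensity trend. In settings added after seeing the data it was 0 without run A, D or 10wk and from runs E and F alone, 1 without run B and without runs E and F (Brf2 in both), 5 without motorneuron and 9 without run C. The 31 genes with the covariates held none of Top1, Brf2 and Maf1, whose adjusted p there were 0.235, 0.109 and 0.101. Maf1 also lost its call with quantile normalization and without the arrays called by the Grubbs test, and Top1 with arrays centred on their medians. All 27 members differed between runs, but 13 did from runs E and F alone. Members lower in run E (5) numbered 2 with arrays centred on their medians.

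Replicate numbers were in the titles of 3 runs. The 8 pairs of the same number correlated from -0.13 to 0.33 in their deviations from the mean of their kind of serum in the run. These pairs are not independent. With 2 arrays of each kind in HB9MNs, its pairs read the same by construction, at 0.06. The check therefore cannot settle whether the numbers pair the samples. With the replicate block 2 members were called (Polr2f and Polr3c), and 7 genes of the other lists.

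Changes near 0 turned sign. Polr3a was at 0.0060 without the run in the fit, 0.0044 with the replicate block, 0.0085 with quantile normalization, 0.0074 with array weights, 0.0044 without the arrays called by the Grubbs test, 0.0090 without motorneuron, 0.00072 without F and 0.0014 without E and F. Polr3g was at -0.054 with the covariates and -0.025 from E and F alone. Polr2e was at 0.022 with the covariates, 0.014 without A and 0.0060 without D, and Polr2k at 0.015 without D and 0.0024 without E and F. From E and F alone Polr2a was at -0.0022 and Polr3gl at 0.035. The cause was not tested. Polr2f and Polr3c lay above the median of all genes in mean intensity, and Polr2h and Polr3g below it. Whether dimness affected the readings of Polr2h and Polr3g was not tested.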
